A study of Homo sapiens with 6 samples.

Results

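Genes that set how much active eIF2 a cell has were followed in U251 cells, an established cell line from a human astrocytic glioma, after treatment with 6-shogaol. They are 3 kinases of eIF2 (EIF2AK1, EIF2AK3 and EIF2AK4), the phosphorylated subunit of eIF2 (EIF2S1), the 5 subunits of eIF2B (EIF2B1 to EIF2B5) and the phosphatase adaptor PPP1R15B. These 10 genes were chosen by symbol, and all 10 were found among the 60612 genes of the deposited table and passed the filter on low counts, which left 19279 genes. One group of 3 libraries came from cells given 6-shogaol, a pungent enone of dried ginger, for 24 h, at a dose that the labels write as 60 "μm", read here as micromolar. The other group of 3 libraries came from cells kept without the compound. Both groups carry the label WT and were grown in the same serum-containing medium, and nothing in the labels says whether replicates were separate cultures, so p-values refer to the spread among libraries, part or all of which may be technical.

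When eIF2 is phosphorylated on its alpha subunit it holds on to its exchange factor eIF2B, so that less initiator tRNA is delivered to ribosomes and most translation slows, while a few messages such as that of the transcription factor ATF4 are translated better. Each kinase reads a different stress, and phosphatase 1 bound to PPP1R15A or PPP1R15B removes the phosphate again. In brain the pathway is best known from inherited eIF2B mutations, which cause vanishing white matter, a disease in which astrocytes and oligodendrocytes fail. RNA sequencing measured transcripts of these genes; phosphorylation and protein were not measured.

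The libraries held from 43516840 to 60018999 counts. Each eIF2 control gene had at least 1009 counts in every library. Of the glioma and astroglial markers, VIM, NES, SOX2, CD44 and EGFR were present in every library (lowest value 8.14 FPKM, fragments scaled to gene length and depth), GFAP was low (0.616 to 2.51 FPKM) and S100B was near the floor (at most 0.619 FPKM). Leukocyte, endothelial and neuronal markers stayed at or below 1.02 FPKM, as did EPCAM and CDH1, whereas the keratins KRT8 and KRT18 were present (8.77 to 22.9 FPKM). GFAP (log2 fold change -1.62, edgeR adjusted p = 0.00655), NES (-0.42, adjusted p = 0.0484) and the endothelial CDH5 (-1.77, adjusted p = 0.0192, at most 0.342 FPKM) were lower with 6-shogaol, and their part in the results was not tested. Log2 CPM (counts scaled to library size, here with TMM factors) put 6-shogaol replicate 1 apart on the second principal component, at -61.8 where the rest ranged from -22.6 to 33.9, and a value without it is given where leaving it out turned a direction, changed a call or moved the log2 fold change of a named eIF2 gene by over 1.5 times.

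No transcript of the eIF2 control genes passed the edgeR test after 6-shogaol. Across all tested genes 3.38% were called by edgeR (quasi-likelihood F-test, adjusted p under 0.05 by Benjamini-Hochberg), against 0 of the 10 eIF2 control genes. At an unadjusted p under 0.05 there were 3 of the 10, EIF2B4 and EIF2B3 with lower and PPP1R15B with higher means after 6-shogaol, where 20.4% of all tested genes reached that level. Over all 10 genes log2 fold changes ran from -0.29 to 0.18, with a median of 0.03. Their median absolute value was 0.13, beside 0.22 over all tested genes. The median standard error was also smaller, 0.083 for the 10 genes and 0.17 over all tested genes. The absolute values therefore differ in precision and do not show that the 10 genes moved less than others. The 95% confidence intervals of the 10, taken gene by gene, lay between 0.712-fold (EIF2B4) and 1.27-fold (EIF2S1). As these are shares of the RNA of a whole culture, fewer cells with a transcript and less of it per cell cannot be told apart.

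**Figure D1:**
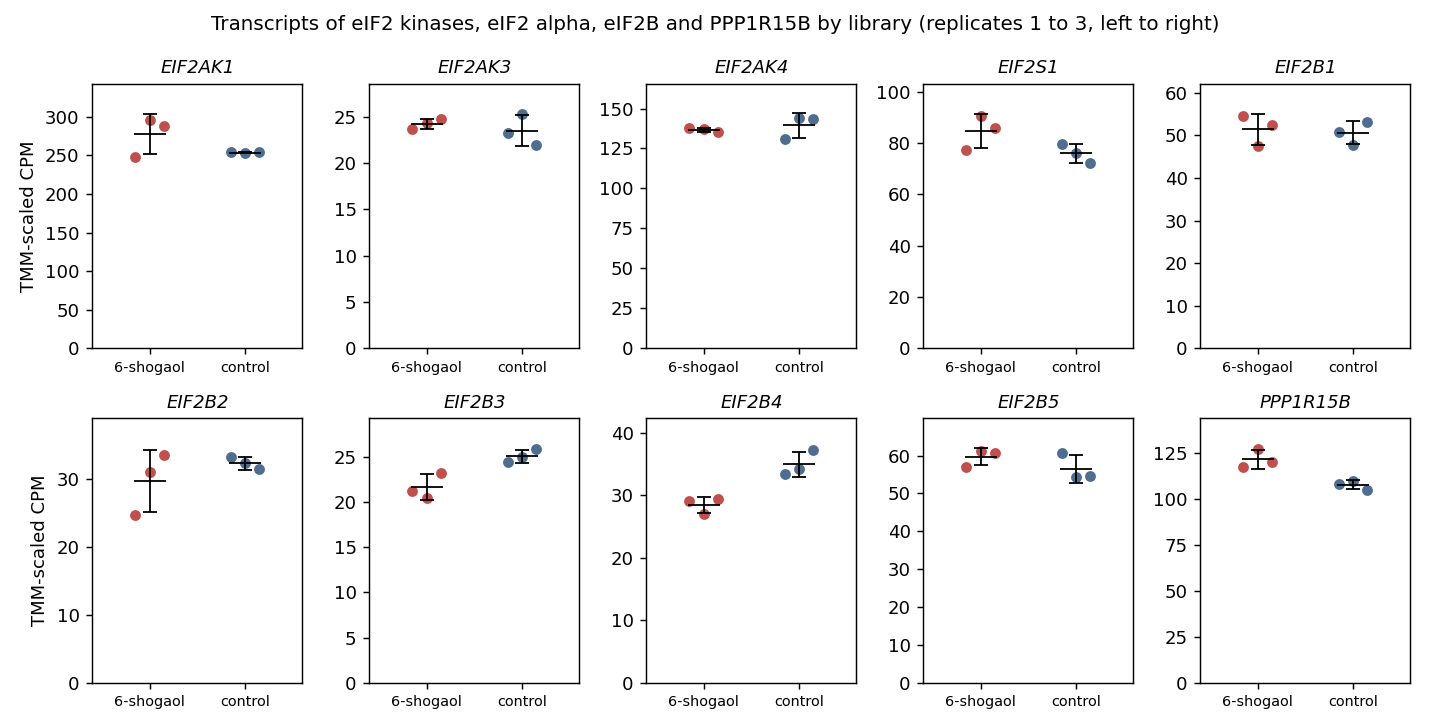
TMM-scaled CPM (vertical axis, from 0) of the 10 eIF2 control genes in the 3 6-shogaol libraries (red) and the 3 control libraries (blue). Points are replicates 1 to 3 from left to right, horizontal bars are means and error bars are SDs. The groups are apart in EIF2B3, EIF2B4 and PPP1R15B and overlap in the other 7 genes.

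None of the kinase transcripts passed the test. EIF2AK1 (HRI, ENSG00000086232, chromosome 7, 6022247 to 6059175) is the kinase that responds to lack of heme and to mitochondrial stress. It stood at 249, 297 and 289 CPM in 6-shogaol replicates 1, 2 and 3, against 254, 253 and 254 CPM in control replicates 1, 2 and 3. In CPM treated replicates 2 and 3 were above every control and treated replicate 1 below them. In FPKM the lowest treated value (39.3, replicate 1) was just above the highest control value (39.2, replicate 3). The mean was 278 ± 25.8 CPM with 6-shogaol and 254 ± 0.834 CPM in controls (SD, n = 3 each), a log2 fold change of 0.13 (95% confidence interval -0.05 to 0.32, edgeR adjusted p = 0.411). Without 6-shogaol replicate 1 it was 0.21 (interval 0.09 to 0.33) and still did not pass (edgeR adjusted p = 0.0741). In that fit 5.07% of 19953 tested genes were called and again 0 of the 10 eIF2 control genes. AIMP2 lies on the opposite strand and shares 9.59% of the EIF2AK1 exon length, and the strand used in counting is not given in the sources used here.

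EIF2AK3 (PERK, ENSG00000172071, chromosome 2, 88556741 to 88627464) is the kinase that spans the endoplasmic reticulum membrane and reads unfolded protein in its lumen. It had 23.7, 24.4 and 24.7 CPM in 6-shogaol replicates 1, 2 and 3, against 23.2, 25.3 and 22.0 CPM in control replicates 1, 2 and 3. All treated values were inside the control range. The log2 fold change was 0.05 (95% confidence interval -0.16 to 0.25, edgeR adjusted p = 0.829), which leaves room for a change between -10.7% and 19.3%. Without control replicate 3 the sign turned (-0.00096), at a size far below the error.

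EIF2AK4 (GCN2, ENSG00000128829, chromosome 15, 39934115 to 40035591) is the kinase that binds uncharged tRNA and stalled ribosomes. It had 138, 137 and 135 CPM in 6-shogaol replicates 1, 2 and 3, against 131, 144 and 144 CPM in control replicates 1, 2 and 3. The treated libraries lay close together within the control range. The log2 fold change was -0.03 (95% confidence interval -0.18 to 0.12, edgeR adjusted p = 0.853).

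EIF2S1 (ENSG00000134001, chromosome 14, 67360151 to 67386516) encodes eIF2 alpha, the subunit that all of these kinases phosphorylate. It stood at 77.4, 90.5 and 85.9 CPM in 6-shogaol replicates 1, 2 and 3, against 79.8, 76.2 and 72.4 CPM in control replicates 1, 2 and 3. As for EIF2AK1, treated replicates 2 and 3 were above all controls and treated replicate 1 was not. The log2 fold change was 0.15 (95% confidence interval -0.04 to 0.35, edgeR adjusted p = 0.360) with all libraries and 0.21 without 6-shogaol replicate 1 (edgeR adjusted p = 0.145). In FPKM the lowest treated value (12.2) was just above the highest control value (12.1). ATP6V1D on the opposite strand shares 4.76% of the EIF2S1 exon length.

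The 5 eIF2B subunits had log2 fold changes on both sides of 0, of which edgeR called 0. eIF2B exchanges GDP for GTP on eIF2, and gamma (EIF2B3) with epsilon (EIF2B5) form its catalytic arms around a regulatory core of alpha (EIF2B1), beta (EIF2B2) and delta (EIF2B4). Their median log2 fold change was -0.12, against -5.3e-05 over all tested genes, with 2 above 0 and 3 below. EIF2B3 and EIF2B4 had a lower value in every treated library than in any control. Groups that did not overlap were seen, lower with 6-shogaol, in 13.9% of all tested genes.

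EIF2B4 (ENSG00000115211, chromosome 2, 27364352 to 27370457), the delta subunit that helps to sense the phosphate on eIF2 alpha, had the smallest p of the 10 genes. It stood at 29.1, 27.0 and 29.3 CPM in 6-shogaol replicates 1, 2 and 3, against 33.3, 34.2 and 37.2 CPM in control replicates 1, 2 and 3. The highest treated library was below the lowest control. The mean was 28.5 ± 1.30 CPM with 6-shogaol and 34.9 ± 2.05 CPM in controls (SD, n = 3 each), a log2 fold change of -0.29 (SE 0.08, 95% confidence interval -0.49 to -0.10, unadjusted p = 0.00914, edgeR adjusted p = 0.110). DESeq2, which called 12.0% of the genes to which it gave an adjusted p, called EIF2B4 (adjusted p = 0.0438) and no other of the 10. When 1 library was left out the edgeR value ran from -0.33 to -0.25 (adjusted p from 0.114 to 0.271). The antisense gene AC074117.1 shares 3.73% of the EIF2B4 exon length.

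EIF2B3 (ENSG00000070785, chromosome 1, 44850522 to 44986722), the gamma subunit, had 21.2, 20.4 and 23.2 CPM in 6-shogaol replicates 1, 2 and 3, against 24.4, 24.9 and 25.8 CPM in control replicates 1, 2 and 3. Here too the groups did not overlap. The log2 fold change was -0.21 (95% confidence interval -0.42 to -0.01, unadjusted p = 0.0439, edgeR adjusted p = 0.230). EIF2B5 is its partner in the catalytic arm. This epsilon subunit with the exchange activity (ENSG00000145191, chromosome 3, 184135038 to 184145311) had 57.1, 61.1 and 60.8 CPM in 6-shogaol replicates 1, 2 and 3, against 60.7, 54.3 and 54.5 CPM in control replicates 1, 2 and 3. Those groups overlapped, with control replicate 1 among the treated values (log2 fold change 0.08, 95% confidence interval -0.10 to 0.26, edgeR adjusted p = 0.630). The intervals of EIF2B3 and EIF2B5 overlap, and the difference between the subunits was not tested.

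EIF2B2 (ENSG00000119718, chromosome 14, 75002921 to 75012366), the beta subunit, had 24.7, 30.9 and 33.5 CPM in 6-shogaol replicates 1, 2 and 3, against 33.2, 32.2 and 31.4 CPM in control replicates 1, 2 and 3. One treated library was low and the others lay around the controls. The log2 fold change was -0.12 (95% confidence interval -0.41 to 0.16, edgeR adjusted p = 0.639) with 6-shogaol replicate 1 and -0.0029 without it. EIF2B1 (ENSG00000111361, chromosome 12, 123620406 to 123633766), the alpha subunit that joins the complex at its centre, had 54.6, 47.4 and 52.4 CPM in 6-shogaol replicates 1, 2 and 3, against 50.8, 47.8 and 53.2 CPM in control replicates 1, 2 and 3. The groups lay over each other (log2 fold change 0.02, 95% confidence interval -0.17 to 0.22, edgeR adjusted p = 0.913). Its sign turned without 6-shogaol replicate 1 (-0.02) and without control replicate 2 (-0.02). DDX55 on the opposite strand shares 14.8% of the EIF2B1 exon length.

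PPP1R15B (CReP, ENSG00000158615, chromosome 1, 204403381 to 204411817) is the adaptor that keeps phosphatase 1 on eIF2 in unstressed cells. It stood at 117, 127 and 120 CPM in 6-shogaol replicates 1, 2 and 3, against 108, 110 and 105 CPM in control replicates 1, 2 and 3. Every treated library was above every control, as in 14.0% of all tested genes. The mean was 122 ± 5.13 CPM with 6-shogaol and 108 ± 2.46 CPM in controls (SD, n = 3 each), a log2 fold change of 0.18 (SE 0.06, 95% confidence interval 0.03 to 0.33, unadjusted p = 0.0274, edgeR adjusted p = 0.182). It did not pass in any fit without 1 library (0.14 to 0.20, adjusted p from 0.119 to 0.407).

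Promoter sequences were searched for TGATGNAA, the core of the element through which ATF4 and C/EBP partners bind, on both strands of the 250 bases before each RefSeq start (build GRCh38.p14). The table matched 9 of the 10 eIF2 control genes, all but EIF2AK1, and 1 of these 9 held a match, PPP1R15B. Of all 35116 RefSeq promoters, alternative starts included, 3.144% held one, and 3 of 11 matched genes of the ATF4 list did. A listed gene was counted if any of its starts held a match, whereas 3.144% counts each promoter singly, so the units differ. The 3 were CHAC1, ASNS and ATF3, of which ATF3 was not called (log2 fold change 0.85, edgeR adjusted p = 0.0545). TRIB3, DDIT4, DDIT3, PSAT1 and SESN2 rose in edgeR and held no match at any start searched. The PPP1R15B stretch is printed beside those of CHAC1 and ASNS to show the letters they share. CHAC1 and ASNS are the listed genes that both held a match and rose in edgeR (log2 fold changes 1.14 and 1.01). A link between match and rise was not tested. Each stretch is 30 bases, 5′ to 3′ on the gene's strand, with the match in capitals.
PPP1R15B (chr1:204412026-204412055, minus strand): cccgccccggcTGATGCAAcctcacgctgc
CHAC1 (chr15:40953251-40953280, plus strand): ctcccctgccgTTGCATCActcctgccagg
ASNS (chr7:97872458-97872487, minus strand): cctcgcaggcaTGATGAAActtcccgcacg
In PPP1R15B the match lies 227 to 220 bases before the start and reads TGATGCAA. In CHAC1 the capitals are its reverse complement, 209 to 202 bases before the start. A match is a description of letters and shows neither binding nor use of the element.

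**Figure D2:**
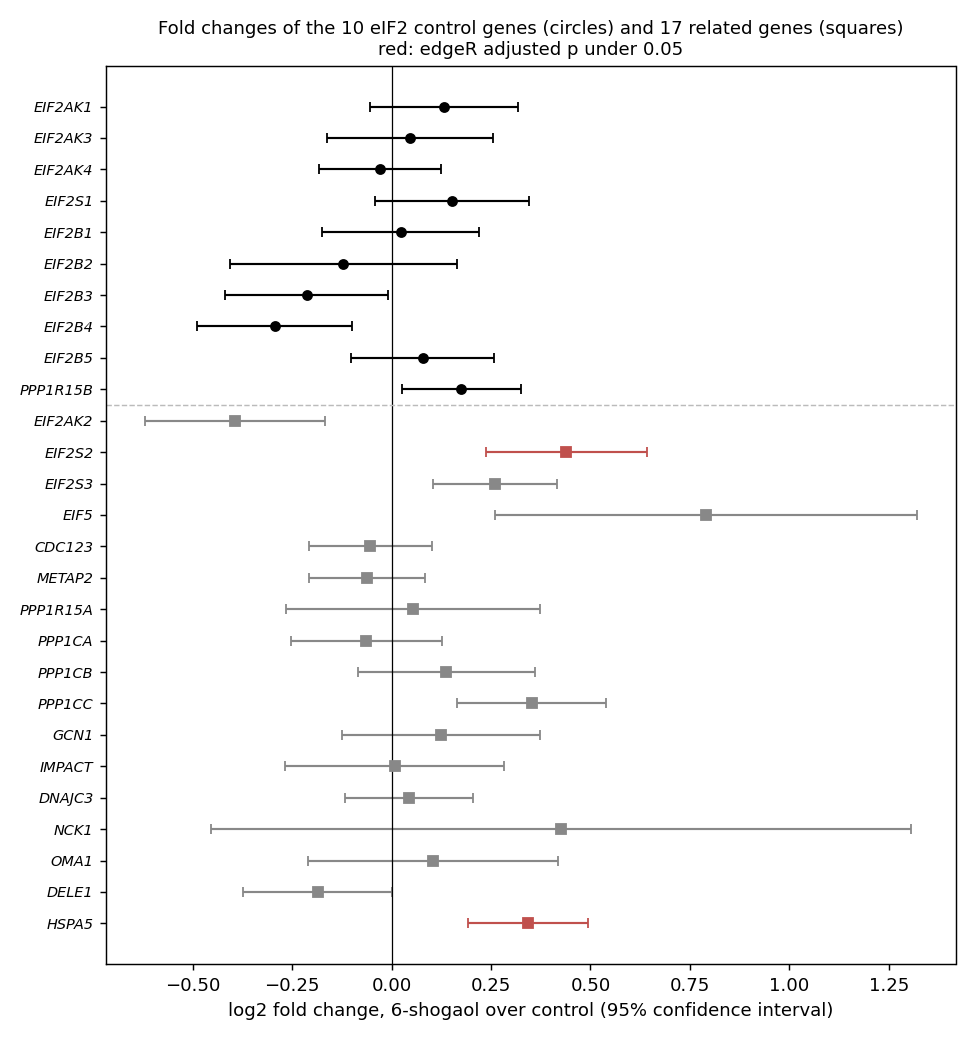
Log2 fold change of 6-shogaol over control (horizontal axis) with its 95% confidence interval for the 10 eIF2 control genes (black circles) and 17 related genes (squares). Red marks an edgeR adjusted p under 0.05, reached by EIF2S2 (0.44) and HSPA5 (0.34) among the related genes and by 0 of the 10.

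Levels per length set the genes far apart from each other. EIF2AK1 was the highest of the 10, at 43.1 ± 3.29 FPKM with 6-shogaol and 38.8 ± 0.367 FPKM in controls (SD, n = 3 each). PPP1R15B was next, at 19.7 ± 0.522 FPKM with 6-shogaol and 17.2 ± 0.275 FPKM in controls. EIF2AK3 was the lowest, at 3.78 ± 0.0601 FPKM with 6-shogaol and 3.60 ± 0.241 FPKM in controls. Between these ends, in the order of the treated means, came EIF2S1 (13.1 FPKM), EIF2B1 (12.1 FPKM), EIF2AK4 (9.71 FPKM), EIF2B5 (7.03 FPKM), EIF2B3 (5.39 FPKM), EIF2B2 (4.64 FPKM) and EIF2B4 (4.56 FPKM). With 6-shogaol 6 of the 9 neighbouring pairs in this order had library ranges that did not overlap, and EIF2S1 from EIF2B1, EIF2B3 from EIF2B2 and EIF2B2 from EIF2B4 were not separated. In controls 7 of 9 pairs were separated, EIF2B1 from EIF2S1 and EIF2B5 from EIF2B3 were not, and EIF2B4 (5.51 FPKM) stood above EIF2B2 (4.98 FPKM).

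**Figure D3:**
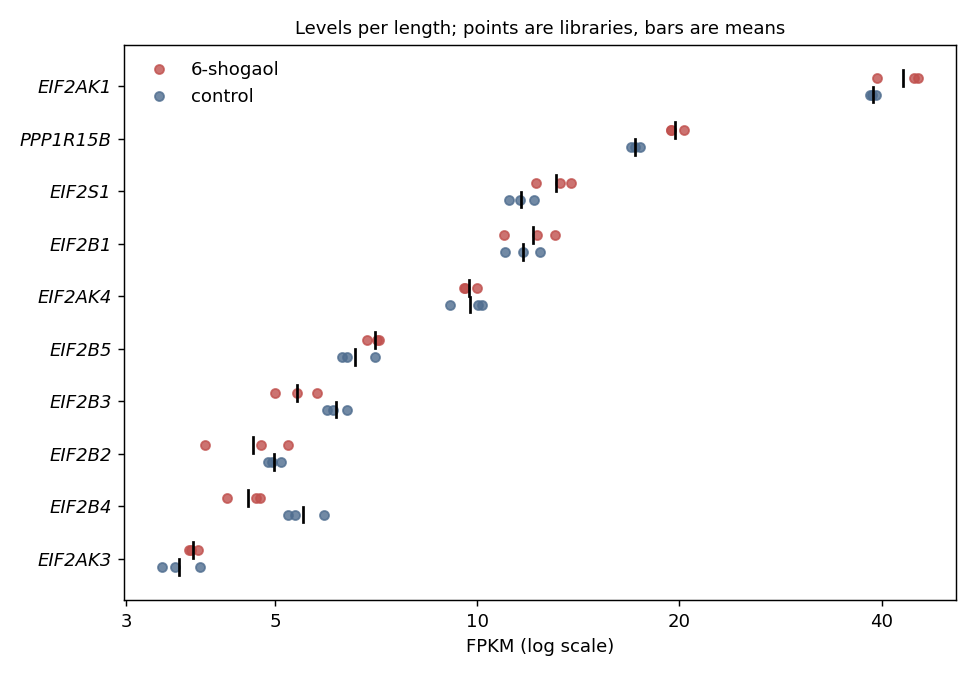
FPKM on a log scale (horizontal axis) of the 10 eIF2 control genes, ordered by their mean with 6-shogaol. For each gene the 6-shogaol libraries (red) lie above the control libraries (blue), and black bars are means; EIF2AK1 is highest and EIF2AK3 lowest in both groups.

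Shares within each family were then taken from FPKM, a choice made after values had been seen, so they carry no test. How often shares of other genes would lie apart between the groups was not computed. For the CPM of single genes it was 14.0% higher and 13.9% lower with 6-shogaol. EIF2AK1 made up 61.0%, 64.1% and 61.9% of the summed FPKM of the 4 eIF2 kinases in 6-shogaol replicates 1, 2 and 3, against 56.8%, 56.0% and 57.5% in control replicates 1, 2 and 3. The groups did not overlap. The fourth kinase, the double-stranded RNA sensor EIF2AK2 (PKR), which is itself induced by interferon, took 17.7%, 17.1% and 19.5% with 6-shogaol, against 24.6%, 23.8% and 22.7% in controls. EIF2AK3 held between 4.98% and 5.82% and EIF2AK4 between 13.3% and 15.5% over all 6 libraries. So the larger share of EIF2AK1 stood beside a smaller one of EIF2AK2, whose own CPM missed the threshold in edgeR (adjusted p = 0.0767, log2 fold change -0.39) and passed it in DESeq2 (adjusted p = 0.00818).

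Among eIF2B subunits EIF2B4 made up 14.0%, 13.2% and 13.3% of the summed FPKM in 6-shogaol replicates 1, 2 and 3, against 14.9%, 15.9% and 16.4% in control replicates 1, 2 and 3. These groups also lay apart. The catalytic subunits EIF2B3 and EIF2B5 together held 36.0%, 37.7% and 36.8% with 6-shogaol, against 37.1%, 36.8% and 35.5% in controls, and overlapped. EIF2S1 made up 8.94%, 8.88% and 8.56% of the summed FPKM of the 3 eIF2 subunits with 6-shogaol. In controls it made up 10.6%, 10.1% and 9.69%, again without overlap. The mean of EIF2S1 itself was not lower, at 13.1 FPKM with 6-shogaol and 11.6 FPKM in controls. Its smaller share stood beside larger log2 fold changes of EIF2S2 (0.44) and EIF2S3 (0.26) than its own (0.15). PPP1R15B held 41.4%, 49.5% and 50.2% of the pair PPP1R15A and PPP1R15B with 6-shogaol, against 47.3%, 44.2% and 42.7% in controls, where treated replicate 1 was below every control and the other treated libraries above.

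**Figure D4:**
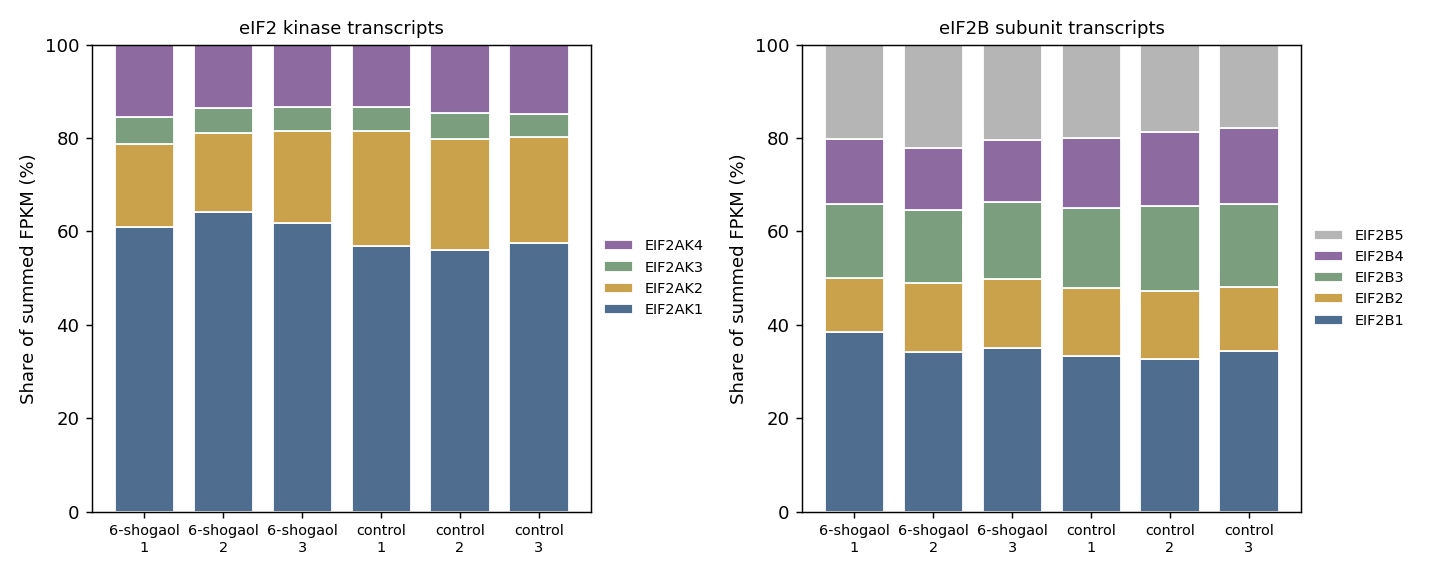
Share of summed FPKM (vertical axis, percent) of each eIF2 kinase (left) and each eIF2B subunit (right) in the 3 6-shogaol and the 3 control libraries. EIF2AK1 holds 61.0% to 64.1% of kinase transcripts with 6-shogaol and 56.0% to 57.5% in controls.

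A list of 17 further genes of the eIF2 cycle was read beside these values. Of its members 2 rose and 0 fell in edgeR, where 1.67% of all tested genes rose, and the median log2 fold change over the 17 was 0.10. EIF2S2, the beta subunit of eIF2, rose to 238, 289 and 285 CPM in 6-shogaol replicates 1, 2 and 3, against 197, 204 and 197 CPM in control replicates 1, 2 and 3 (log2 fold change 0.44, 95% confidence interval 0.24 to 0.64, edgeR adjusted p = 0.0456). Its pseudogene EIF2S2P4, with a mean of 874 counts, may share reads with it. HSPA5, the chaperone BiP that holds EIF2AK3 inactive in the endoplasmic reticulum, rose to 929, 872 and 881 CPM with 6-shogaol, against 681, 683 and 750 CPM in controls (log2 fold change 0.34, edgeR adjusted p = 0.0393). Leaving out any single library other than 6-shogaol replicate 1 ended both calls. DESeq2 called 6 of the 17, these genes with EIF2AK2, EIF2S3, EIF5 and PPP1CC, where it called 12.0% of all genes with an adjusted p.

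EIF2S3, the gamma subunit of eIF2, had 205, 228 and 226 CPM in 6-shogaol replicates 1, 2 and 3, against 186, 178 and 186 CPM in control replicates 1, 2 and 3, without overlap. The test was not passed (edgeR adjusted p = 0.0858, log2 fold change 0.26). It was called without 6-shogaol replicate 1 (0.31, adjusted p = 0.0366). PPP1CC, a catalytic subunit of phosphatase 1, likewise did not pass with all libraries (0.35, edgeR adjusted p = 0.0632) and was called without that library (0.42, adjusted p = 0.0202). For both genes treated replicate 1 was the lowest of the treated libraries, as it was for EIF2AK1, EIF2S1 and EIF2B2. EIF5, whose product triggers GTP hydrolysis on eIF2, showed the widest spread of the eIF2 partners, at 175, 113 and 90.0 CPM with 6-shogaol, against 73.9, 67.9 and 77.0 CPM in controls (log2 fold change 0.79, edgeR adjusted p = 0.112). There treated replicate 1 was the highest, and without it the log2 fold change was 0.48 (edgeR adjusted p = 0.0782).

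Apart from HSPA5, the upstream regulators of the kinases did not pass. OMA1 and DELE1, which carry mitochondrial stress to EIF2AK1, had log2 fold changes of 0.10 and -0.19 (edgeR adjusted p = 0.728 and 0.247). DELE1 was lower in every treated library than in any control, as were 13.9% of all tested genes. GCN1 and IMPACT, which promote and restrain EIF2AK4, had values of 0.12 and 0.0076, and DNAJC3 and NCK1, described as restraints on eIF2 kinases, of 0.04 and 0.43. NCK1 rested on 6-shogaol replicate 3, which had 29.1 CPM where the other 5 libraries had 11.3 to 15.9 CPM, and its value was -0.15 without that library. CDC123 and METAP2, which help to assemble eIF2 and to shield it from phosphorylation, had values of -0.05 and -0.06. The phosphatase subunits PPP1CA and PPP1CB had values of -0.06 and 0.14. Without 6-shogaol replicate 1 the values were 0.21 for OMA1, 0.05 for GCN1, 0.09 for IMPACT (-0.05 to 0.09 over all fits without 1 library), 0.08 for DNAJC3, -0.14 for PPP1CA and 0.24 for PPP1CB, and none of these passed in edgeR (lowest adjusted p = 0.0605, for PPP1CB).

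PPP1R15A (GADD34), the stress-induced partner of PPP1R15B, had 96.8, 75.8 and 69.3 CPM in 6-shogaol replicates 1, 2 and 3, against 70.0, 80.8 and 82.2 CPM in control replicates 1, 2 and 3. The groups overlapped, with treated replicate 1 above and treated replicate 3 below every control (log2 fold change 0.05, 95% confidence interval -0.26 to 0.37, edgeR adjusted p = 0.872). Its sign turned without 6-shogaol replicate 1 (-0.10) and without control replicate 1 (-0.01). Downstream of eIF2, 7 of 12 transcripts favoured by eIF2 phosphorylation or switched on by ATF4 rose and 0 fell (median log2 fold change 0.70), where 1.67% of all tested genes rose. Without 6-shogaol replicate 1 it was 8 of 12, where 2.41% rose, and without each other library in turn 4 to 6. The 3 with the smallest p were CHAC1, which degrades glutathione (log2 fold change 1.14, edgeR adjusted p = 0.00209), the mTORC1 inhibitor gene DDIT4 (1.19, adjusted p = 0.00209) and asparagine synthetase, ASNS (1.01, adjusted p = 0.00635). The 5 that did not pass, named after their values were seen, were ATF4 itself (0.03, adjusted p = 0.974), ATF5 (0.06), VLDLR (0.02), ATF3 (0.85, adjusted p = 0.0545) and NUPR1 (0.41, adjusted p = 0.0630). The ATF4 transcript had 52.3, 59.7 and 58.5 CPM in 6-shogaol replicates 1, 2 and 3, against 42.1, 38.7 and 86.5 CPM in control replicates 1, 2 and 3. Control replicates 1 and 2 lay below every treated library and control replicate 3 above. With a 95% confidence interval of -0.67 to 0.72, its level is not shown to be unchanged. ATF4 targets were already known to be higher in these libraries when the list was drawn up. The counts of ATF4-linked genes that rose are therefore no independent evidence.

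Genes whose profile over the 6 libraries was most like that of EIF2B4 were found by the root mean square difference of mean-centred log2 CPM among 11721 candidates averaging 5 CPM or more. The closest were CAPN10 (0.0263), NRDE2 (0.0303) and HDAC7 (0.0313). Their log2 fold changes of -0.29, -0.26 and -0.30 follow from this choice by profile and are no further result.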

How the data were processed

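RNA sequencing covered 3 6-shogaol and 3 control libraries of U251 cells. Per the labels' protocols, total RNA came from a Trizol extraction and a SMARTER mRNA-Seq kit made the libraries. The authors deposited raw counts per gene, and FPKM values, per the file headers, beside the same counts again (0 differences). The aligner, counter and strand setting are not given in the sources used here. The submitters' processing notes name the mouse builds GRCm38 and mm10, but all 60612 identifiers are human Ensembl identifiers. Coordinates are those of the deposited table. All 10 eIF2 control genes overlap the gene of the same symbol in GENCODE release 29 (GRCh38), 2 of them with the same start and end.

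The test on counts was that of edgeR 4.0.16 under R 4.3.3 (filterByExpr, TMM, glmQLFit and glmQLFTest, Benjamini-Hochberg over 19279 genes, threshold 0.05). Standard errors were derived from the F statistic, and intervals use the moderated degrees of freedom. The fits were tested on simulated data, with 50 genes changed at each size. There edgeR recovered 4% of 1.5-fold and 48% of 2-fold changes, and DESeq2 32% and 72%. False calls were 10 of 115 calls in edgeR, 14 of 123 in limma and 56 of 199 in DESeq2. The changed genes were drawn at random and not matched to the 10 eIF2 control genes. In edgeR 115 calls were made there and 651 in the data, so the cutoff on unadjusted p was stricter in the simulation. The recovered shares therefore do not give what the test would miss among the 10 genes. A gene that edgeR did not call may still have changed, and a call by DESeq2 alone is weaker. As alternatives served RLE scaling, upper-quartile scaling, DESeq2 1.42.0, other filters, a replicate block, each library left out, and limma 3.58.1 on log2 FPKM with a pseudocount of 1 or 0.1. Exon overlap came from GENCODE 29, for neighbours averaging 10 counts or more. The members and lists were chosen with earlier results of these data known. All 10 genes were named, with the related list of 17. Of 12 ATF4-linked genes the count and the 3 with the smallest p were named. The 5 that did not pass were added after their values were seen. So were the remaining called genes, named for their promoters.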

Additional observations from a re-analysis of the deposited data

How the results depend on the processing

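The count of 0 called eIF2 control genes was the same under every alternative except DESeq2, which called 1, EIF2B4; at an unadjusted p under 0.05 edgeR had 3 and DESeq2 3. The 651 genes called over the table became 1866 in DESeq2, 378 with no filter, 94 in limma on unfiltered log2(FPKM + 1) and 3 with the replicate block, and 98 to 1012 when 1 library was left out. The 2 related genes called became 6 in DESeq2, 4 in limma on log2(FPKM + 1) or log2(FPKM + 0.1), 0 with no filter, 0 in limma on unfiltered values, 0 with the replicate block and 0 to 4 when 1 library was left out; the cause was not tested. The 7 ATF4-linked genes called, a count whose alternatives were added after seeing the data, became 0 with the replicate block, 3 in limma on unfiltered values and 4 to 8 when 1 library was left out. Over all genes of each fit the called share was 3.38% in edgeR and 12.0% in DESeq2. In limma it was 6.04% on log2(FPKM + 1) and 5.79% on log2(FPKM + 0.1). The share of higher calls was 49.5% in edgeR and 58.4% in limma on log2(FPKM + 1). Separated neighbours in the order of levels numbered 13 of 18 and 13 to 15 when 1 library was left out. Leaving out a library can only narrow the ranges, so this number could not fall while the order held. Among the 10 genes signs turned for EIF2AK3 (-0.00096 to 0.10) and EIF2B1 (-0.0206 to 0.0773) in fits without 1 library. No pairing by replicate number was seen: deviations of same-numbered libraries from their group means correlated at -0.03, 0.06 and -0.04. Those of differently numbered libraries correlated at -0.06 to 0.09. With 3 libraries per group these values cannot exclude a pairing. The lowest count of an eIF2 control gene in a library was 1009, and the intervals hold counting error and the spread between libraries together.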
